A study of Mus musculus with 20 samples.

Results

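Voltage-gated calcium channels of the cochlea were examined through 10 subunit genes, taken as a named list of alpha1, beta and alpha2delta genes other than Cacna1d, out of 24407 genes in each table. The list holds 6 alpha1 genes (Cacna1a, Cacna1b, Cacna1c, Cacna1e, Cacna1g and Cacna1h), the beta gene Cacnb2 and 3 alpha2delta genes (Cacna2d1, Cacna2d2 and Cacna2d3). The selection rule names genes and sets no cut-off on measured values, but the genes were chosen with earlier results of these data known. All 10 were measured in every library. Cacna1d was left out because it encodes the pore of the channel at the inner hair cell ribbon, the structure that holds synaptic vesicles at the release site. Cacnb2 and Cacna2d2 are themselves known partners of that channel, and RNA from bulk tissue cannot assign their reads to either side of the synapse.

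The study compared mice heterozygous (Bai1tm2b/+, the controls) and homozygous (Bai1tm2b/tm2b) for an allele of Adgrb1 that lacks exons 3 and 4 and carries a lacZ cassette, so the controls also carry 1 mutant copy. The mutation is in the germline and so in all cells of the animal, and both genotypes are on a C57BL/6N background. Each library was poly(A) RNA from a pool of 4 mice, dissected as the organ of Corti epithelium together with the spiral ganglion. The paper gives the apical coil of the cochlea as the part used. There were 7 libraries of each genotype at postnatal day 7 (P7), in batches of 4 and 3, and 3 of each genotype at P22. The question was which transcripts differ between genotypes before and after the onset of hearing.

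Replicates 5 to 7 at P7 and all P22 libraries were in estimated counts, with totals of 31105352 to 58800621 per library, whereas the columns of replicates 1 to 4 at P7 hold whole numbers with nearly equal totals. No source used here states the unit of these columns, and they were read from their totals as rounded TPM, a unit scaled for transcript length and library size. Levels below are CPM, the share of a gene in the counts of its library on a common scale for the 12 count libraries, and TPM values are given apart. Nothing in the labels ties the pools of a genotype to separate litters, so p-values measure the spread between these pools. A gene was called when its Benjamini-Hochberg adjusted p was under 0.05, its log2 fold change was beyond 0.5 and its standard error was under 0.5, from edgeR's quasi-likelihood test for counts and from limma for TPM. Adgrb1 itself stood at 152 to 167 CPM in heterozygous and 100.3 to 105 CPM in homozygous P22 libraries (log2 fold change -0.61 ± 0.0585 (SE), edgeR adjusted p = 0.000603). Its difference was -0.64 ± 0.227 in the P7 counts (adjusted p = 0.894) and 0.02 ± 0.129 in the rounded TPM (limma adjusted p = 0.94), where the groups overlapped. A gene-level value sums reads from exons outside the deletion, so it is a weak check of the labels.

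Voltage-gated calcium channels open when the membrane depolarises and let calcium into the cell. The alpha1 subunit forms the pore and sets the current type: P/Q-type for Cacna1a, N-type for Cacna1b, L-type for Cacna1c, R-type for Cacna1e and low-threshold T-type for Cacna1g and Cacna1h. The beta subunit binds the alpha1 subunit inside the cell and aids its delivery to the membrane, and the alpha2delta subunit sits mostly outside the cell and raises the number of channels at the surface. T-type channels do not need either partner to conduct. In the auditory system, P/Q- and N-type channels serve release at central nerve endings, T-type currents are common in immature sensory and nerve cells, and Cacna2d3 is needed for normal endings of the auditory nerve in the brainstem.

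Between P7 and P22 the levels of 8 of the 10 calcium channel genes changed. Cacna1a, Cacna2d3 and Cacnb2 rose, Cacna1h, Cacna1g, Cacna2d1, Cacna2d2 and Cacna1e fell, and Cacna1b and Cacna1c were not called. Of the 10 genes 3 were called higher and 5 lower, and the same 8 had ranges that did not overlap between ages, where 25.9% of 16310 genes tested were called higher, 28.7% lower, 30.6% lay above without overlap and 32.0% below. Age calls were therefore common in these libraries, while the median size of the log2 difference, regardless of sign, was 1.34 over the 10 genes and 0.64 over all genes tested. All P22 libraries came from 1 batch and all P7 libraries in counts from another, so age and batch cannot be told apart.

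**Figure D1:**
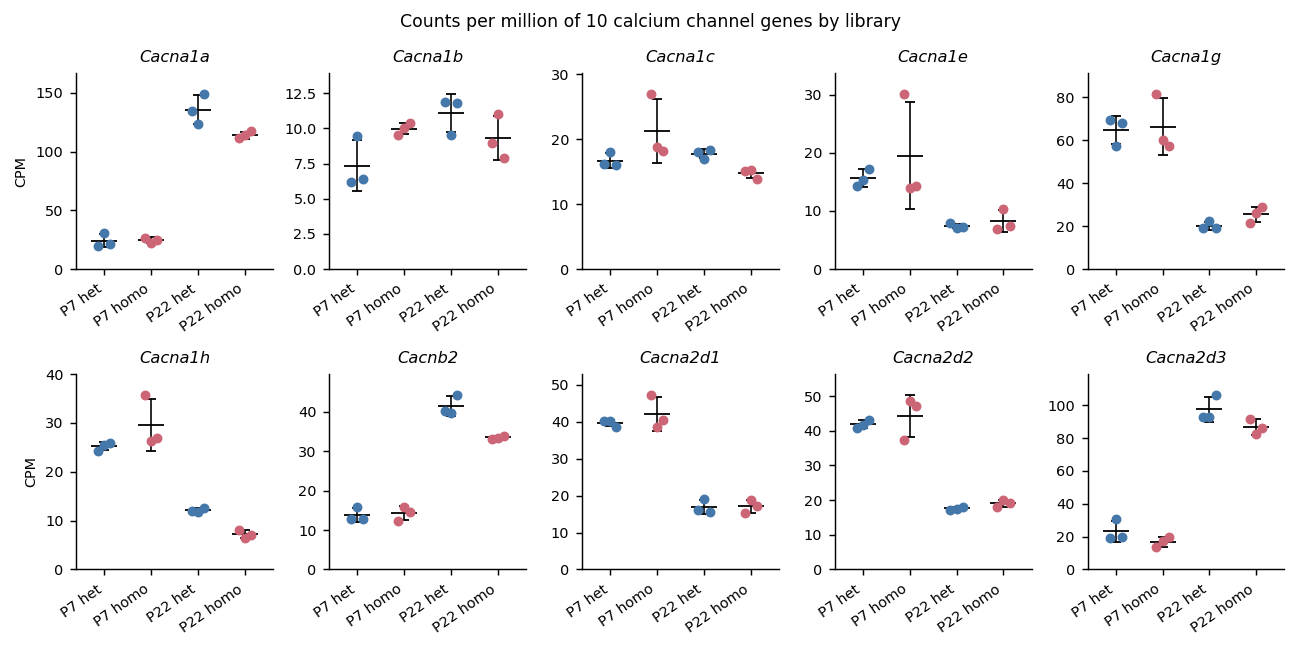
CPM (y axis, from 0, a separate scale for each gene) of the 10 genes in the 12 libraries in counts, by age and genotype (x axis, het for heterozygous, homo for homozygous). Points are libraries and bars the mean ± SD of 3. Cacna1a, Cacnb2 and Cacna2d3 sit higher at P22 in every library, and Cacna1h has its lowest values in the 3 homozygous P22 libraries, between 6.50 and 8.06 CPM.

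Among the alpha1 genes, Cacna1a, whose product carries P/Q-type current (GRCm38, chr8:84388440-84640246, plus strand), gave the largest rise. It stood at 19.97, 30.6 and 21.8 CPM in the heterozygous P7 libraries and at 26.9, 22.4 and 25.1 CPM in the homozygous ones. At P22 it reached 134, 124 and 149 CPM in heterozygous and 111, 114 and 117 CPM in homozygous libraries. Every P22 library lay above every P7 library, and the rise was 5.08-fold (log2 2.34 ± 0.0982, adjusted p = 3.48e-10). Cacna1a was thus the alpha1 gene with the most RNA per length at P22, where at P7 its median was below those of Cacna1g and Cacna1h.

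The T-type genes moved the other way. Cacna1g (chr11:94408391-94474198, minus strand) stood at 69.4, 57.5 and 67.9 CPM in heterozygous and 81.3, 60.3 and 57.1 CPM in homozygous P7 libraries. It stood at 19.2, 22.3 and 19.2 CPM, and 21.7, 26.1 and 28.7 CPM, in the same order at P22. No P22 library reached the lowest P7 value, and the fall was 2.89-fold (log2 -1.53 ± 0.102, adjusted p = 1.8e-08). Cacna1h (chr17:25374285-25433783, minus strand) fell 2.93-fold (log2 -1.55 ± 0.0864, adjusted p = 3.54e-09), also without overlap. Its P7 values were 24.3, 25.6 and 25.8 CPM in heterozygous and 35.8, 26.2 and 26.9 CPM in homozygous libraries.

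The R-type gene Cacna1e fell 2.24-fold (log2 -1.16 ± 0.185, adjusted p = 7.36e-05), from 13.99 to 30.1 CPM over the 6 P7 libraries to 6.86 to 10.4 CPM over the 6 at P22. Its highest value, 30.1 CPM, was that of homozygous P7 replicate 5, and the next was 17.3 CPM. The N-type gene Cacna1b (6.18 to 10.4 CPM at P7, 7.93 to 11.9 CPM at P22) differed by 0.24 on the log2 scale (95% interval -0.02 to 0.51, adjusted p = 0.0848). The L-type gene Cacna1c, best known for heart and smooth muscle, differed by -0.22 (interval -0.42 to -0.02, adjusted p = 0.0441), below the size needed for a call. For these 2 genes the genotypes did not point the same way: Cacna1b differed with age by 0.59 in heterozygous and -0.1 in homozygous libraries, and Cacna1c by 0.09 and -0.53.

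Cacnb2 (chr2:14603088-14987908, plus strand) stood at 12.7, 15.9 and 12.7 CPM in heterozygous and 12.4, 15.9 and 14.5 CPM in homozygous P7 libraries. At P22 its values were 40.2, 39.7 and 44.4 CPM, and 33.1, 33.4 and 33.9 CPM. All 6 P22 libraries lay above all 6 at P7 (2.65-fold, log2 1.41 ± 0.0771, adjusted p = 3.02e-09).

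The alpha2delta genes split, with Cacna2d3 higher and the other 2 lower at P22. Cacna2d3 (chr14:28904943-29721864, minus strand) went from 19.3, 30.6 and 19.8 CPM in heterozygous and 13.7, 17.3 and 19.6 CPM in homozygous P7 libraries to 93.0, 93.0 and 107 CPM, and 91.5, 82.4 and 86.3 CPM, at P22. The groups did not overlap and the rise was 4.64-fold (log2 2.21 ± 0.121, adjusted p = 2.95e-09). Cacna2d1 (chr5:15934691-16374511, plus strand) encodes the alpha2delta protein that, with that of Cacna2d2, binds gabapentin. It ranged from 38.4 to 47.4 CPM at P7 and from 15.3 to 19.0 CPM at P22, and fell 2.4-fold (log2 -1.26 ± 0.0741, adjusted p = 5.48e-09). Cacna2d2 ranged from 37.3 to 48.5 CPM and from 17.2 to 20.03 CPM, and fell 2.35-fold (log2 -1.23 ± 0.0668, adjusted p = 2.77e-09).

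**Figure D2:**
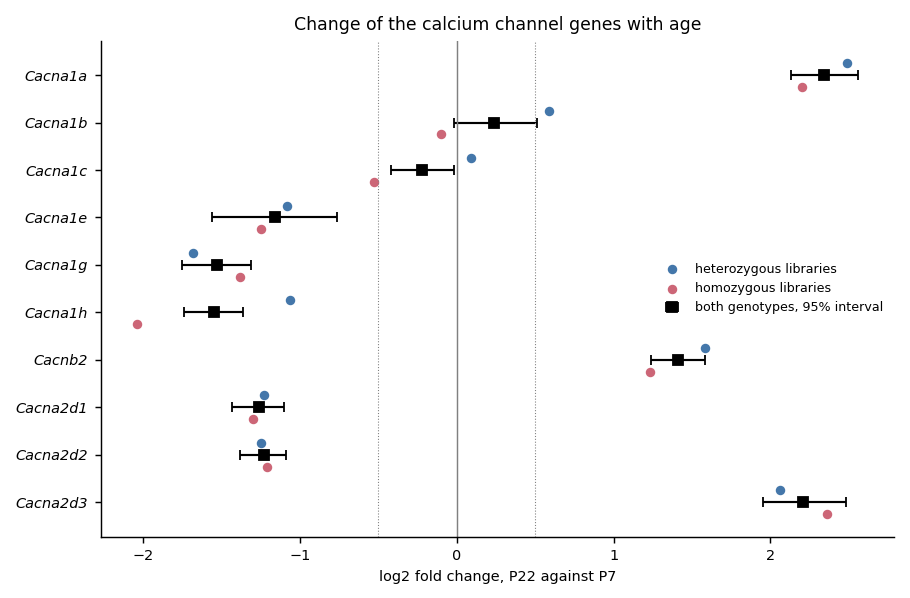
Log2 fold change of P22 against P7 (x axis) for the 10 genes (y axis). Squares with bars are the estimate over both genotypes with its 95% interval, blue and red points are heterozygous and homozygous libraries alone, and dotted lines mark 0.5 in each direction. Cacna1a, Cacna2d3 and Cacnb2 lie to the right of 1, 5 genes lie to the left of -1, and Cacna1h is the gene whose genotypes lie farthest apart.

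Where a gene had 1 promoter entry in RefSeq and the window before its start was free of annotated exons, the sequence can be set beside the change. The 250 bases before the start are shown for the alpha2delta gene that rose and 1 that fell, Cacna2d3 (chr14:29721865-29722114, minus strand, GRCm38.p6) and Cacna2d1 (chr5:15934441-15934690, plus strand), each read 5′ to 3′ in the direction of transcription. Capitals mark GC boxes (GGGCGG) and E boxes of the form CAGCTG, on either strand.
Cacna2d3: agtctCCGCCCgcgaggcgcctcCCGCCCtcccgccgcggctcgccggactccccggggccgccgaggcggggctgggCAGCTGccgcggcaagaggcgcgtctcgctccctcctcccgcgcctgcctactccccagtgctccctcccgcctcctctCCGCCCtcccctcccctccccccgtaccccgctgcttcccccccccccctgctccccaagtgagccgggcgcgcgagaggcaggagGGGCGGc
Cacna2d1: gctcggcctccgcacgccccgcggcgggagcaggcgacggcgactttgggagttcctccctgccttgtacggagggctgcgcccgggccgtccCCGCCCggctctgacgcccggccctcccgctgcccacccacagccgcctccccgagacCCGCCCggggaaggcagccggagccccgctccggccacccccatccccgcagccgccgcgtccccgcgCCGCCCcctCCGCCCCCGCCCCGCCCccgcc
Both windows are rich in G and C (80.0% and 82.4% of bases). The Cacna2d3 window holds 4 GC boxes and 1 E box, and that of Cacna2d1 holds 6 GC boxes, some of which overlap, and no CAGCTG. Neither holds CCAAT or TATAAA on either strand. Of 32851 RefSeq windows of this length 32.7% hold a GC box, 33.8% CCAAT, 12.4% TATAAA and 13.0% CAGCTG. Among the 10 genes 7 had an entry in the table, 10 windows in all. CAGCTG also stood in both Cacnb2 windows and the Cacna1b window, and in none of the other windows, which belong to Cacna1c, Cacna1e and Cacna2d2. These are letter matches in a fixed window and say nothing of binding.

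Levels of different genes were compared per kilobase of the longest coding transcript. At P7 Cacna1g (6.82 to 9.70 CPM per kb over 6 libraries) and Cacna2d2 (6.42 to 8.35) led and overlapped, followed by Cacna2d1 (5.17 to 6.37). Cacna2d3 (3.70 to 8.28) overlapped with these and with Cacnb2 (3.13 to 4.04), Cacna1h (2.95 to 4.35) and Cacna1a (2.52 to 3.86), and Cacna1c, Cacna1e and Cacna1b came last, with medians of 1.37, 0.994 and 0.978. At P22 the first 3 did not overlap: Cacna2d3 (22.3 to 28.8), Cacna1a (14.05 to 18.8) and Cacnb2 (8.40 to 11.3). Cacna2d2 (2.97 to 3.45), Cacna1g (2.28 to 3.42) and Cacna2d1 (2.06 to 2.55) followed as overlapping neighbours, then Cacna1c, Cacna1h and Cacna1b with medians of 1.22, 1.202 and 1.06, and Cacna1e was lowest at 0.46 to 0.695. The reference length of Cacna2d3, 3.69 kb, is short for the family (7.44 kb for Cacna2d1, 5.81 kb for Cacna2d2), which raises its value per kilobase. In the rounded TPM at P7 the order was led by Cacna2d3 (median 12.5 TPM), Cacna2d1 (11), Cacna2d2 (10.5) and Cacna1g (9), with Cacna1b and Cacna1c at 2 TPM.

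As shares of the summed level per kilobase, the T-type pair made up 62.5% of the 6 alpha1 genes at P7 (median of 6 libraries, 58.0% to 67.7%) and 17.9% at P22 (14.9% to 19.97%). Cacna1a made up 16.6% (15.1% to 22.5%) at P7 and 69.7% (67.6% to 73.1%) at P22. Within the alpha2delta genes Cacna2d3 went from 28.8% (22.5% to 39.7%) to 82.3% (78.9% to 84.7%), as Cacna2d2 went from 40.6% to 10.1% and Cacna2d1 from 28.8% to 7.59%. The ranges of the 2 ages did not overlap for any of these shares. Cacna1b kept a small share at both ages, 5.01% and 4.65%.

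**Figure D3:**
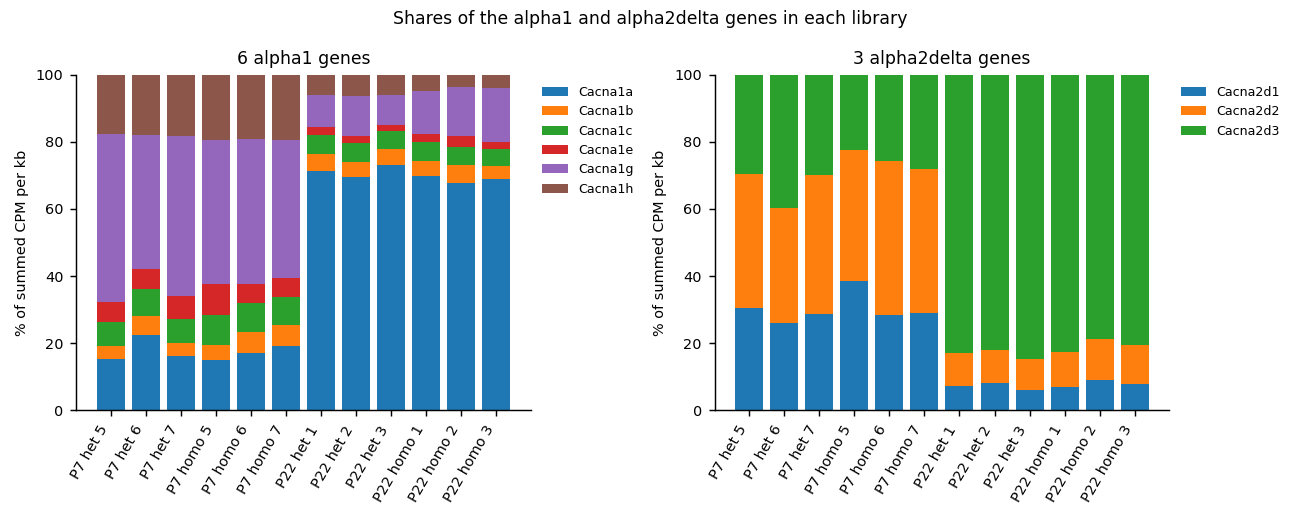
Share of each gene (y axis, percent of the summed CPM per kb) among the 6 alpha1 genes (left) and the 3 alpha2delta genes (right) in each of the 12 libraries in counts (x axis, age, genotype and replicate). Cacna1d is not among the alpha1 genes shown. Cacna1g and Cacna1h fill most of the alpha1 bars at P7 and Cacna1a most of them at P22, and Cacna2d3 fills 78.9% to 84.7% of the alpha2delta bars at P22.

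Cell type markers also moved with age. The summed level of 12 spiral ganglion neuron markers was 1166 to 3111 CPM at P7 and 15146 to 23104 CPM at P22, with 12 of 12 called higher and none at 0 in any library. Of 10 hair cell markers 7 were called lower, and of 8 supporting cell markers 5 were called lower and 2 higher. In such bulk libraries fewer cells of a type and less RNA per cell cannot be told apart. When libraries were scaled to the neuron markers, the median of all genes moved to -3.54 on the log2 scale and all 10 channel genes were called lower. The share of all genes called lower under this scaling is not given here, so that count is not a result about the channel genes. The estimates were then -1.11 for Cacna1a, -1.22 for Cacna2d3 and -2.06 for Cacnb2, and -5.06 for both Cacna1g and Cacna1h. This scaling shifts all genes nearly alike, so the order of the genes is fixed by construction. Within P7 the heterozygous library with the highest neuron marker sum, replicate 6 at 3111 CPM, also had the highest Cacna1a and Cacna2d3 (30.6 CPM for each). The library with the lowest sum, homozygous replicate 5 at 1166 CPM, had the lowest Cacna2d3 (13.7 CPM) but the next highest Cacna1a (26.9 CPM). The part of cell composition in the age differences was not tested.

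Other channel genes changed with age as well. Of 16 other subunit genes 13 were tested, and 7 were called higher and 2 lower, against 25.9% and 28.7% of all genes. The largest were Cacng2 (2.82 on the log2 scale) and Cacng4 (-1.89), both named as gamma subunits but known as partners of AMPA receptors, the beta gene Cacnb4 (2.17), the T-type gene Cacna1i (-1.88) and Cacng7 (1.67). Cacna1d, the ribbon alpha1 gene, differed by -0.07 ± 0.0749 (adjusted p = 0.387). Of 14 genes for channel regulators 6 were called higher and 4 lower, against the same shares of all genes. Among them Cabp1 (4.01), which encodes a calcium-binding protein that modulates these channels, Stac2 (3.41), the calmodulin genes Calm3 (1.75) and Calm2 (1.37), and Rem2 (-2.59), a small GTPase that inhibits these channels, had the largest differences.

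At P22 the genotypes differed in Cacna1h. It stood at 11.9, 11.7 and 12.6 CPM in heterozygous and 8.06, 6.50 and 7.06 CPM in homozygous libraries, on 245 to 431 estimated reads per library. Every homozygous value was below every heterozygous one, by 1.67-fold (log2 -0.74 ± 0.119, 95% interval -1 to -0.48, edgeR adjusted p = 0.00492). It was the only one of the 10 genes called in edgeR's test at P22, where 3.15% of 15439 genes were called (1.74% higher and 1.41% lower) and DESeq2 called 3.46%. DESeq2 gave -0.74 as well (adjusted p = 1.29e-05), and Cacna1h was called with each of the 6 libraries left out (-0.82 to -0.67). The paper, from these same libraries, also places Cacna1h and the gamma gene Cacng2 among its genes lower at P22, so these calls are not independent of it.

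The remaining genes at P22 had smaller differences. Cacnb2 was lower by 1.23-fold, with an adjusted p of 0.0217 (log2 -0.30 ± 0.0701) and without overlap, but it was under the size needed for a call, and its adjusted p rose to as much as 0.0639 with 1 library left out (without heterozygous replicate 3). With Cacna1h, 2 of the 10 genes had an adjusted p under 0.05, and 12.3% of all genes did. In DESeq2, Cacnb2 (adjusted p = 0.0052), Cacna1a (0.0119) and Cacna1g (0.0373) had adjusted p values under 0.05 beside Cacna1h, which makes 4 of the 10 genes against 17.0% of all genes, and only Cacna1h was past the size for a call. Cacna1a, at -0.24 ± 0.0712, missed the threshold in edgeR (adjusted p = 0.0501), as did Cacna1c at -0.26 ± 0.0874 (0.0786) and Cacna2d3 at -0.16 ± 0.0714 (0.165). In 5 genes (Cacna1h, Cacnb2, Cacna1a, Cacna1c and Cacna2d3) all homozygous libraries lay below all heterozygous ones, against 18.8% of genes that did so and 15.0% that lay above. No member lay wholly above. Over the 10 genes the median difference was -0.20, and over all genes tested 0.01. In these libraries the difference fell with transcript length over all genes (Spearman rho -0.22, a description), and the 10 genes are long (median 8.08 kb against 3.14 kb). The part of length in this median was not tested.

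Cacna1g leaned the other way at P22, at 0.34 ± 0.111 (edgeR adjusted p = 0.0721), and the heterozygous value of 22.3 CPM exceeded the lowest homozygous one of 21.7 CPM. The T-type pair thus differed in direction of its estimates, with Cacna1h alone past the threshold. Cacna1b was at -0.25 ± 0.146 (interval -0.57 to 0.08), Cacna1e at 0.15 ± 0.164 (-0.21 to 0.51), Cacna2d1 at 0.03 ± 0.109 (-0.21 to 0.27) and Cacna2d2 at 0.13 ± 0.0826 (-0.06 to 0.31). The intervals of Cacna2d1 and Cacna2d2 exclude a log2 difference of 0.5 in either direction.

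**Figure D4:**
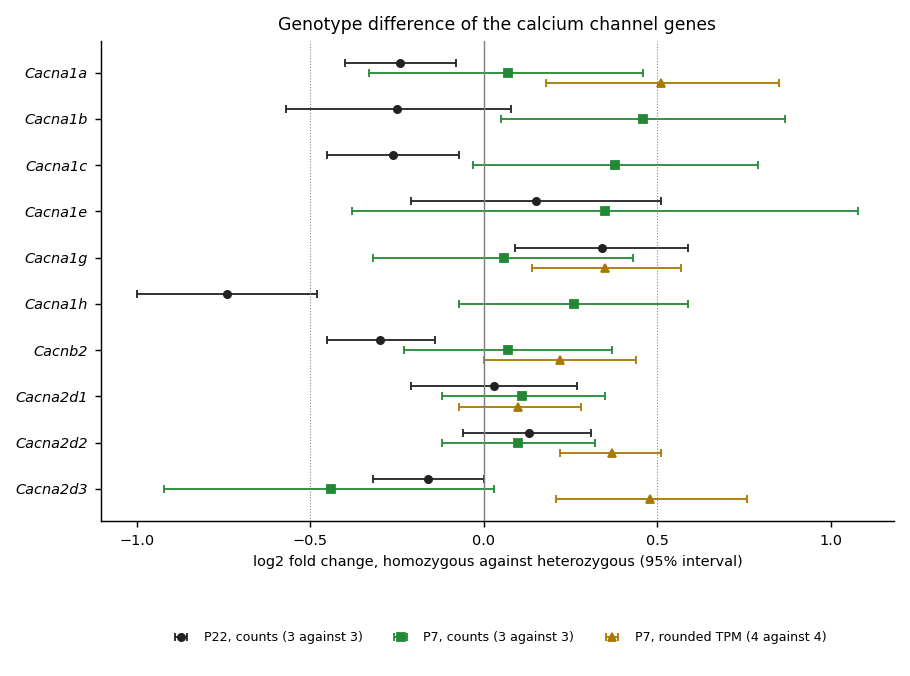
Log2 fold change of homozygous against heterozygous libraries (x axis) with its 95% interval for the 10 genes (y axis) in the 3 sets of libraries, with dotted lines at 0.5 in each direction. Genes under 5 TPM on average have no triangle. At P22 the interval of Cacna1h (-1 to -0.48) lies farthest from 0, and at P7 the 6 triangles and 9 of 10 squares lie to the right of 0.

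Summed markers of some cell types lay apart between genotypes at P22. The summed neuron markers were 20712 to 23104 CPM in heterozygous and 15146 to 17039 CPM in homozygous libraries, without overlap (exact permutation test, 2-sided, p = 0.1, the smallest that 3 against 3 allows), and 3 of 12 were called lower. Summed markers of hair cells (452 to 479 against 568 to 673 CPM), supporting cells (1381 to 1559 against 1706 to 1891) and central glia (443 to 581 against 645 to 992) were higher without overlap in homozygous libraries, each with the same p. Adjusted over the marker lists (Benjamini-Hochberg), each of these permutation p values was 0.3. Of single genes, 18.8% lay below and 15.0% above without overlap. Called higher were 2 of 10 hair cell, 3 of 8 supporting cell and 3 of 5 central glia markers, and 1 supporting cell marker was called lower. Of all genes tested, 1.74% were called higher and 1.41% lower. Scaled to the neuron markers, the median of all genes moved to 0.46 and the estimate for Cacna1h to -0.29 (adjusted p = 0.0575, not called). Cacna1g (0.79), Cacna1e (0.61) and Cacna2d2 (0.58) were called higher, where the median gene itself lay near the 0.5 needed. The share of all genes called under this scaling is not given here, so these calls are not a result about the channel genes. This scaling too shifts all genes nearly alike. The part of cell composition in the Cacna1h difference was not tested.

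The genes most like Cacna1h across the 6 P22 libraries, by the Pearson correlation of log2 CPM, were Arhgef4, Thy1, Lynx1, Elac1 and Sult4a1, with r from 0.998 to 0.999. The points share both genotypes, so a difference between the groups alone gives a high value. Arhgef4, an exchange factor for small GTPases, was itself called lower (-0.56 ± 0.0654, adjusted p = 0.00132). Thy1 (-0.42), a marker of neurons also held in the neuron list, Lynx1 (-0.40) and Sult4a1 (-0.45) had adjusted p values of 0.00439, 0.00394 and 0.00346 but were under the size for a call, and Elac1 was at -0.17 (0.0886).

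Among the other subunit genes at P22, 1 of 11 tested was called, where 3.15% of all genes were. It was Cacng2, lower in homozygous libraries (23.2 to 25.8 against 36.03 to 44.1 CPM, log2 -0.66 ± 0.0916, adjusted p = 0.00304). Of 13 regulator genes tested Rem2 was called lower (0.447 to 0.57 against 1.35 to 1.70 CPM, -1.57 ± 0.295, adjusted p = 0.00876), on 16 to 54 reads per library. Cabp2, which encodes a hair cell calcium-binding protein that modulates the ribbon channel, was called higher (15.05 to 19.8 against 7.54 to 12.6 CPM, 0.83 ± 0.177, adjusted p = 0.0147).

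At P7 no channel gene was called between genotypes in either set. In the libraries in counts edgeR called 0 of the 10 genes and 0% of 16023 genes. Unadjusted p values under 0.05 were found for 4.76% of all genes and for 1 of the 10, Cacna1b, and DESeq2 called 0.287% of genes and none of the 10. The adjusted p values of the 10 genes lay between 0.894 and 0.961. The fit of these libraries leaves wide intervals, such as -0.38 to 1.08 for Cacna1e.

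The estimates in the P7 counts were above 0 for 9 of the 10 genes, with a median of 0.11 against 0 over all genes. Cacna1b stood at 6.18, 9.48 and 6.42 CPM in heterozygous and 9.55, 10.03 and 10.4 CPM in homozygous libraries (0.46 ± 0.174), and did not overlap. Cacna1c (0.38 ± 0.174) and Cacna1h (0.26 ± 0.14) were also higher in all 3 homozygous libraries. Such a pattern was found in 4.91% of genes, and its opposite in 5.85%. Cacna2d3 alone was below 0 (-0.44 ± 0.202), its groups overlapped, and without heterozygous replicate 6 the value was -0.20. Cacna1a, Cacna1g, Cacnb2, Cacna2d1 and Cacna2d2 were between 0.06 and 0.11.

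In these libraries homozygous P7 replicate 5 stood apart. It had the highest value of its age for Cacna1c (26.9 CPM), Cacna1e (30.1), Cacna1g (81.3), Cacna1h (35.8) and Cacna2d1 (47.4), and the lowest for Cacnb2 (12.4), Cacna2d2 (37.3) and Cacna2d3 (13.7). Without it Cacna1c went from 0.38 to 0.15, Cacna1h from 0.26 to 0.08, Cacna1e from 0.35 to -0.14 and Cacna1g from 0.06 to -0.14. The same library had the lowest summed neuron markers of the 12 (1166 CPM) and the highest summed markers of brain neurons (42.3 CPM, against 22.4 to 34.4 CPM in the other P7 libraries in counts), of which Neurod6 and Slc32a1 were at most 2.48 and 3.41 CPM in any library in counts. Their part in the values was not tested.

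In the rounded TPM of replicates 1 to 4, limma called 0 of the 6 genes that averaged at least 5 TPM, and 0.801% of 11738 genes. All 6 estimates were positive, with a median of 0.36 against 0.01 over all genes, on the scale of log2(TPM + 1). Cacna2d2 was listed at 9, 9, 9 and 8 TPM in heterozygous and 12, 13, 12 and 13 TPM in homozygous libraries (0.37 ± 0.0654, adjusted p = 0.0439). Cacna2d3 was listed at 11, 12, 8 and 7 TPM against 13, 15, 15 and 15 TPM (0.48 ± 0.122, adjusted p = 0.0471). Both had adjusted p values under 0.05, as 7.84% of genes did, with groups that did not overlap, as in 9.13% of genes in this direction, and both were under the size for a call.

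Cacna1a, at 5, 5, 4 and 3 TPM against 5, 8, 7 and 8 TPM, gave 0.51 ± 0.152 (adjusted p = 0.0574), and Cacna1g, at 9, 8, 7 and 7 TPM against 12, 11, 9 and 12 TPM, gave 0.35 ± 0.0969 (0.0513). Cacnb2 was at 0.22 ± 0.0976 (0.141) and Cacna2d1 at 0.10 ± 0.0789 (0.377). Cacna1b, Cacna1c, Cacna1e and Cacna1h lay between 1 and 6 TPM, where rounding leaves few steps, and had no test. Of these Cacna1h was listed at 4, 4, 3 and 3 TPM against 5, 5, 5 and 6 TPM, again without overlap.

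In this set the difference between genotypes rose with transcript length over all genes (Spearman rho 0.602 across genes, a description, since genes are not independent replicates), and the 6 genes are long, with a median of 6.62 kb against 3.17 kb. With the trend of each library on length removed, the 6 estimates lay between -0.08 and 0.43 and all adjusted p values were above the threshold, the lowest being 0.0951 for Cacna2d3. In the counts the same correlation was 0.06 at P7 and -0.22 at P22, and removing the trend left Cacna1h called at P22 (-0.66).

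**Figure D5:**
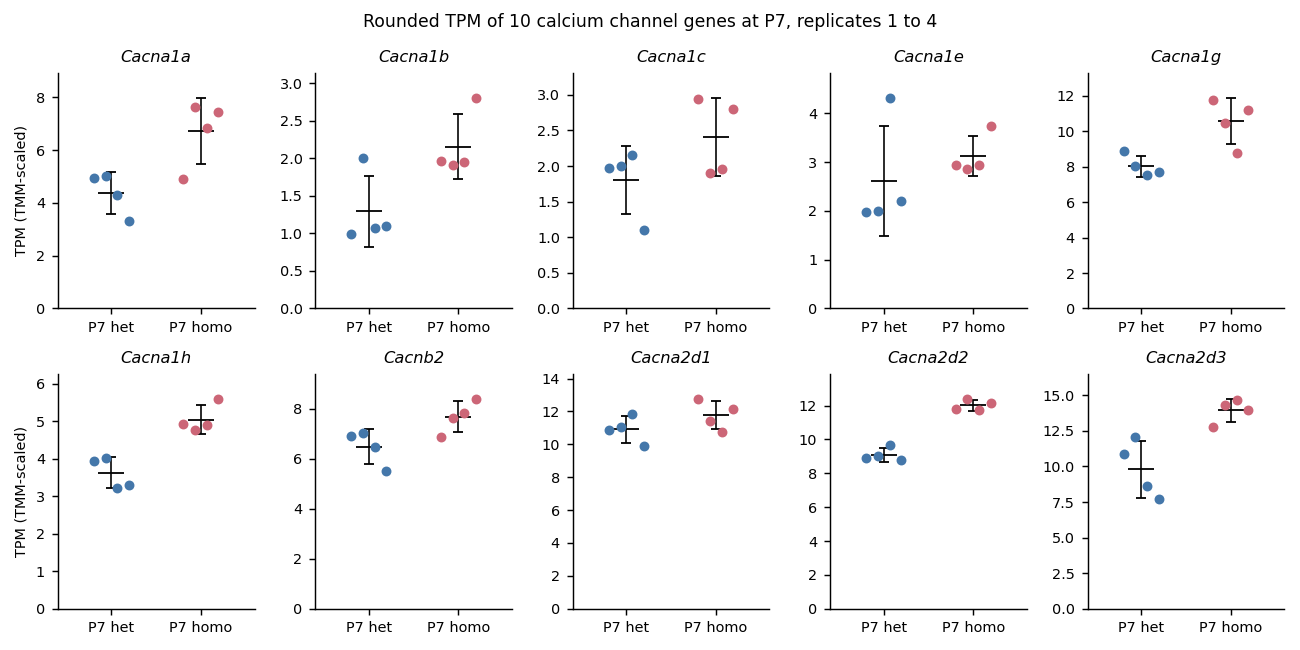
Rounded TPM after scaling between libraries (y axis, from 0, a separate scale for each gene) of the 10 genes in P7 replicates 1 to 4 of each genotype (x axis). Points are libraries and bars the mean ± SD of 4. Groups are apart for Cacna1h, Cacna2d2 and Cacna2d3, and steps of 1 TPM are visible in the genes under 5 TPM.

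Cacna1h passed the threshold for genotype at P22 and not at P7. The test of that difference, genotype by age in the 12 libraries in counts, gave -0.98 ± 0.171 (95% interval -1.35 to -0.61, edgeR adjusted p = 0.0754), which missed the threshold. edgeR called 0.0307% of genes in this test and none of the 10. DESeq2 called 0.733% and among them Cacna1h (-1.02, adjusted p = 0.000145), and edgeR called it (-0.82, adjusted p = 0.0171) when homozygous P7 replicate 5 was left out. Over the other leave-outs of 1 library and the other settings its adjusted p stayed above the threshold. The highest was 0.253 in edgeR with 1 library left out, and 0.999994 among the other settings. Cacna1b (-0.69 ± 0.246, adjusted p = 0.355) and Cacna1c (-0.61 ± 0.186, 0.302) had the next largest estimates, and the other 7 genes lay between -0.35 and 0.30. The genotype by age estimate also fell with transcript length over all genes (Spearman rho -0.23, a description). Seen within genotype, the P22 against P7 difference of Cacna1h on the log2 scale was -1.06 in heterozygous and -2.04 in homozygous libraries.

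Short stretches of some of these genes overlap a gene on the other strand: 7.32% of exon bases for Cacnb2, 3.81% for Cacna1a, 1.62% for Cacna1h and 1.03% for Cacna2d2. Whether reads were counted by strand is not given in the sources used here, so reads in those stretches cannot be assigned. The other 6 genes have no such overlap.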

How the data were processed

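Per the labels and the authors' methods, paired-end reads of poly(A) RNA were quantified with STAR and Salmon on mm10 (GRCm38); versions are not given in the sources used here. The P22 table and P7 replicates 5 to 7 were deposited as estimated counts, rounded here to whole numbers. P7 replicates 1 to 4 were deposited as whole-number values that sum to 999501 to 999633 per library, read from these totals as a score, TPM that the authors rounded, since no source used here states their unit, so no depth is known for them and the 2 units were never fitted together. Of 24411 rows 4 with a repeated symbol were dropped.

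Counts were fitted with edgeR 4.0.16 (TMM, filterByExpr), per age for genotype and over 12 libraries for age and genotype by age. TPM were fitted with limma 3.58.1 on log2(TMM-scaled TPM + 1), which understates changes of low genes, for genes averaging at least 5 TPM. P-values were adjusted over all genes tested, and standard errors for counts were derived from the fold change and its F statistic. The scripts were tested on simulated data. Alternatives were DESeq2 1.42.0, other scalings, filters and pseudocounts, a replicate block, removal of the trend on GENCODE transcript length (for counts, added after the data were seen) and each library left out. The 10 genes, the lists and the tests were chosen with earlier results of these data known. All 10 genes are named, with called genes of the other lists, at most 5 per comparison and list by size, and the 5 genes most correlated with Cacna1h.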

Additional observations from a re-analysis of the deposited data

Results flagged for a closer look

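Opposite positions of the genotypes at the 2 ages were seen for 3 genes, 1 of them in the rounded TPM alone. In Cacna1h and Cacna1c all homozygous libraries lay below the heterozygous ones at P22 and above them in the P7 counts. Of all genes, 18.8% lay below without overlap at P22 and 4.91% above in the P7 counts, and the share that did both is not given here. The test of the difference gave -0.98 (edgeR adjusted p = 0.0754) for Cacna1h and -0.61 (adjusted p = 0.302) for Cacna1c, neither past the threshold. Cacna1h also lay above in the rounded TPM (0.39 with no filter on low values), as did Cacna2d3 (0.48), which lay below at P22 (-0.16). In the P7 counts, however, Cacna2d3 was at -0.44 with overlapping groups, in the same direction as at P22, and its genotype by age estimate in counts was 0.30 (edgeR adjusted p = 0.693). In the rounded TPM the genotype difference rose with transcript length over all genes (Spearman rho 0.602), and Cacna1h is long (8.23 kb against a median of 3.17 kb). These differences between P22 counts and P7 TPM were not tested.

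In the rounded TPM, where groups hold 4 libraries, 1 library stood apart from 3 equal values in 9 of 20 groups. In heterozygous libraries these were Cacna1b (2 TPM against 1), Cacna1c (1 against 2), Cacna1e (4 against 2), Cacna2d1 (9 against 11) and Cacna2d2 (8 against 9). In homozygous libraries they were Cacna1b (3 against 2), Cacna1e (4 against 3), Cacna1h (6 against 5) and Cacna2d3 (13 against 15). Chance alone gives about 1 in 20 groups for continuous values, and values rounded to whole TPM are often tied, which makes any differing library stand apart.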

How the results depend on the processing

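The age calls of Cacna1e, Cacna1g, Cacna1h, Cacna2d1 and Cacna2d2 held under each setting. Those of Cacna1a, Cacnb2 and Cacna2d3 held under each except neuron scaling, as did the Cacna1h call at P22. Scaled to neuron markers, 3 genes were called higher and 0 lower at P22, where the median of all genes was 0.46. There Cacna1a (0.22), Cacna1b (0.21), Cacna1c (0.19), Cacnb2 (0.16) and Cacna2d3 (0.29) changed sign. With age it called 0 higher and 10 lower, where the median was -3.54, with changed sign for Cacna1a (-1.11), Cacna1b (-3.2), Cacnb2 (-2.06) and Cacna2d3 (-1.22). In the rounded TPM it gave -0.01 for Cacnb2 and -0.13 for Cacna2d1, where the median was -0.23. These shifts follow from the construction of the scaling, and the shares of all genes called under it are not given here. Removing the length trend gave -0.08 for Cacna2d1 in the rounded TPM and 0.05 for Cacna1c with age. By genotype, the age difference was 0.09 for Cacna1c in heterozygous and -0.1 for Cacna1b in homozygous libraries.

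In the rounded TPM members called higher went from 0 to 1 with a pseudocount of 0.5 (Cacna2d3), to 2 without TMM scaling (Cacna1a and Cacna2d3) and to between 0 and 2 with 1 library left out, 2 without homozygous replicate 1 and 1 without heterozygous replicate 1. For genotype by age, members called lower went from 0 to 1 with DESeq2, and to between 0 and 1 with 1 library left out, both times Cacna1h, the latter without homozygous P7 replicate 5. The cause was not tested. With 1 library left out, signs turned for Cacna1e (-0.05 to 0.27) and Cacna2d1 (-0.04 to 0.12) at P22. They turned in the P7 counts for Cacna1a (-0.04 to 0.27), Cacna1g (-0.14 to 0.16), Cacna1e (-0.14 to 0.55), Cacna2d1 (0 to 0.18) and Cacnb2 (-0.01 to 0.18), and for genotype by age for Cacna2d1 (-0.13 to 0.03), Cacna1e (-0.37 to 0.29) and Cacna2d2 (-0.07 to 0.11).

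Same-numbered libraries did not deviate together (r from -0.23 to 0.085 over the 3 sets), while differently numbered ones ran from -0.36 to 0.39. With so few libraries in a group this cannot exclude that the numbers pair the samples. With a replicate block, members called at P22 stayed at 0 higher and 1 lower and at P7 at 0, and genes called at P22 went from 269 higher and 218 lower to 264 and 206. With homozygous P7 replicate 5 left out, the P7 count estimates fell to 0.15 for Cacna1c and 0.08 for Cacna1h, and that of Cacna2d3 ran from -0.55 to -0.20 over the libraries left out and was -0.01 under neuron scaling. Genes with few reads, such as Cacna1h at P22 (245 to 431 per library), carry counting error in each value, and rounding limits the P7 TPM.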
